A study of Mus musculus with 6 samples.

Results

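The hypoxia response and glycolysis genes described here are 37 mouse genes given as a list: the enzymes that take glucose to lactate, the transporters that move both sugars and lactate across the membrane, and genes that hypoxia-inducible factor is known to control. All 37 were found by symbol among the 24062 genes of the count tables. RNA was sequenced from cells of the embryonic dorsal pancreatic bud, separated by flow cytometry on Tomato and GFP fluorescence into an epithelial and a mesenchymal fraction. There were 6 libraries, 1 per group, and each was made from pooled sorted fractions: epithelium and mesenchyme at E12.5 and epithelium at E14.5, each from control and from mutant embryos. All groups carried mTmG, a reporter that switches a cell from red to green fluorescence where Cre has acted. Control embryos are labelled mTmG alone. The mutant genotype includes, among its alleles, mTmG+/-, Nkx2.5-Cre+/- and Pbx2+/-, and Cre in this line acts only in cells with a history of Nkx2-5 expression. Pbx proteins are homeodomain transcription factors that bind DNA together with Hox and Meis proteins.

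Glycolysis splits glucose into pyruvate in the cytosol. Lactate dehydrogenase then turns pyruvate into lactate, while pyruvate dehydrogenase acts on pyruvate inside the mitochondrion. When oxygen is scarce, the prolyl hydroxylases of the Egln family stop marking the alpha subunits of hypoxia-inducible factor (Hif1a, Epas1) for destruction, and the factor raises transcription of glucose transporters, glycolytic enzymes and genes such as Car9 and Egln3. The early pancreatic bud is known to be poorly perfused, and its blood supply grows as the epithelium branches and differentiates.

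Counts on genes ran from 14032569 to 20276045 per library. Values are CPM, the counts of a gene scaled to the size of its library with the TMM factors of edgeR, and pairs of values name the control library before the mutant one. Pbx2 stood at 89.9 and 56.0 CPM in the mesenchyme, 1.6-fold lower in the mutant (95% counting interval 1.47 to 1.75). In the E14.5 epithelium it stood at 34.0 and 47.3 CPM, 1.39-fold higher (1.24 to 1.56) and so against the label. In the E12.5 epithelium it stood at 54.5 and 49.7 CPM, 1.1-fold lower (1 to 1.21). Because of the E14.5 value, the epithelial libraries of mutant embryos are called mutant-labelled at both stages. The 8 epithelial markers summed to 2280 to 4922 CPM in the 4 epithelial libraries and to 43.5 and 30.8 CPM in the mesenchyme. The 8 mesenchymal markers summed to 8525 and 7379 CPM in the mesenchyme and to 3936, 4280, 4292 and 8379 CPM in the control and mutant-labelled epithelium at E12.5 and then at E14.5, so the epithelial libraries also held RNA of mesenchymal markers. Erythroid marker sums stayed at or below 65.8 CPM, with Hbb-y at 46.2 CPM in the control mesenchyme. Hba-a1 and Hba-a2 stood at 0 throughout. Reads not unique, 13.7% to 20.1% of reads, are outside the gene counts, so these sums may miss globin reads. Whether the values of 0 arose that way was not tested. The deposited table of the control E12.5 epithelium differs from the other 5 in its date and form of name, which cannot be told apart from the group in the 3 comparisons that use it.

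With 1 library per group there is no replicate, no test across samples and no p-value. A ratio compares 2 libraries and carries an exact 95% Clopper-Pearson interval, which covers counting error only. A gene counted as measured with 5 CPM or more in either library of a pair, and as called higher or lower at 2-fold or more with an interval that left out 1. In bulk RNA, fewer cells of a type and less RNA per cell cannot be told apart.

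The glycolytic enzymes formed the abundant end of the list. Per kilobase of exon, the highest levels in the control E14.5 epithelium were those of Ldha (650.2 CPM per kilobase), which makes lactate from pyruvate, Gapdh (587), Tpi1 (421) and Pkm (349), the pyruvate kinase. Exon length here covers all annotated exons of a gene and can exceed the transcript made, so the order of genes depends on it. In CPM, Gapdh (2427) stood above Ldha (2152) in that library. In the control mesenchyme Gapdh stood at 290.3, Pkm at 255, Tpi1 at 196 and Ldha at 163 CPM per kilobase. Hif1a, a subunit of the factor itself, lay between 27.2 and 44.0 CPM per kilobase in all 6 libraries, above its relative Epas1 at 0.564 to 2.5. Summed over the 16 glycolytic enzyme genes other than Eno1 and Eno1b, transcripts made up 6300 and 8096 CPM in the E12.5 epithelium, 5113 and 5725 CPM in the mesenchyme, and 9867 and 7625 CPM in the E14.5 epithelium. The control mesenchyme was thus the lowest library for this sum and the control E14.5 epithelium the highest.

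Across the 6 libraries, the control E14.5 epithelium held the highest level of 17 of the 37 members and the lowest of 7, and the control mesenchyme the highest of 5 and the lowest of 14. These counts use no filter on low values and include Eno1, which was never measured. The share of all genes highest or lowest in each library was not computed, so the counts only describe the list. Car9, a membrane carbonic anhydrase that hydrates carbon dioxide outside the cell, varied most, with a 57.5-fold span between its lowest and highest library. Eno1b spanned 23.4-fold, Aldoc, an aldolase best known from brain, 13.5-fold, and Pfkfb4 13.1-fold. The lactate transporter Slc16a1 spanned 1.33-fold, Hk2 and Pgam1 1.39-fold each, and the oxygen sensor Egln1 1.41-fold. Over the 7 comparisons there were 51 calls of members, and 17 members had none. Of the calls, 6 fell on Eno1b, whose counts are uncertain. The comparisons share libraries, so the calls are not separate from each other. The share of all genes called is given below for each comparison and was not pooled. Those without a call were the enzymes Hk1, Hk2, Pfkl, Aldoa, Tpi1, Gapdh, Pgk1, Pgam1 and Pkm, the unmeasured Eno1, the transporters Slc16a1, Slc16a3 and Slc2a1, and Bnip3, Egln1, Hif1a and P4ha1.

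**Figure D1:**
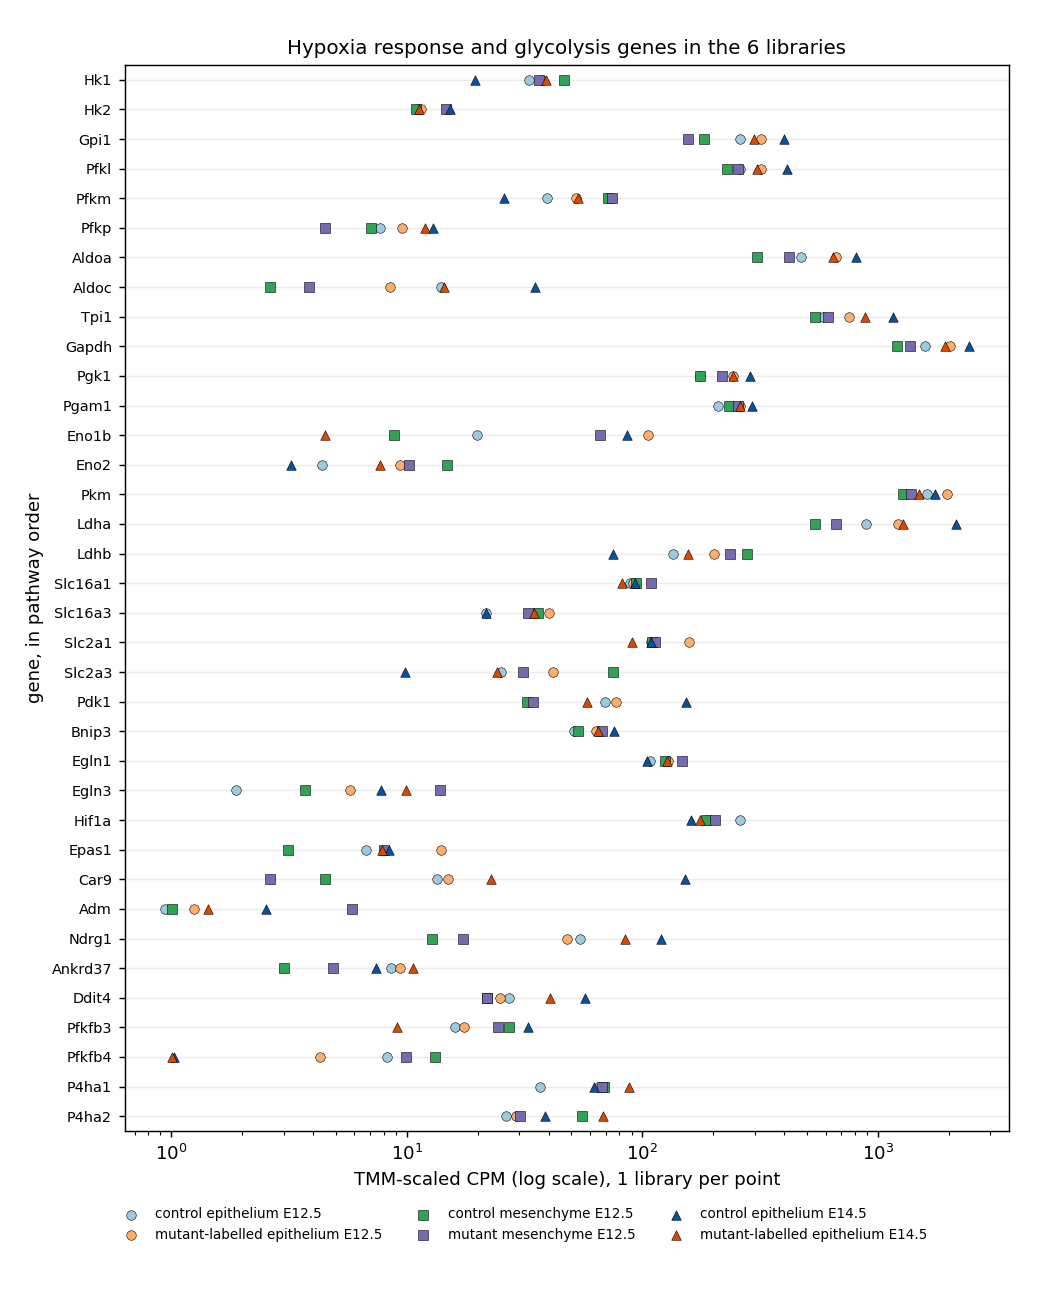
Level of each member in each of the 6 libraries, in TMM-scaled CPM on a log axis, with 1 point per library; Eno1, with 0 to 5 counts in a library, is not drawn. Car9 reaches 152 CPM in the control E14.5 epithelium and lies at 22.7 CPM or less in the other 5 libraries, while the points of Slc16a1 lie within 1.33-fold of each other.

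The bases just before the transcription start of 5 members whose levels differed between libraries are printed here, since hypoxia-inducible factor is known to bind the letters ACGTG and GCGTG. Each line gives 250 bases, 5′ to 3′ on the strand of the gene, from RefSeq (GRCm38.p6), and capitals mark either motif on either strand. The motif CACGTG reads the same on both strands and so holds ACGTG on each.
Ldha (chr7:46845554-46845803, + strand): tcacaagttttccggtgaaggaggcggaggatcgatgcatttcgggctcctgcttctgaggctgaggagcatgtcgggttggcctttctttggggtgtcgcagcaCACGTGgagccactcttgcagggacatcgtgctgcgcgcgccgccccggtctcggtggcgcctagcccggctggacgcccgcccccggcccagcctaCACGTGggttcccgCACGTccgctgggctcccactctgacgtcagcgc
Car9 (chr4:43506776-43507025, + strand): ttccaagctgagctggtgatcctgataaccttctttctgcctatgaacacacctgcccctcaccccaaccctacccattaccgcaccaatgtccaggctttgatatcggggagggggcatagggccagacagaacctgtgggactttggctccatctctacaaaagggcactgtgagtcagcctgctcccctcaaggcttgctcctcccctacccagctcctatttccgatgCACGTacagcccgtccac
Pdk1 (chr2:71872974-71873223, + strand): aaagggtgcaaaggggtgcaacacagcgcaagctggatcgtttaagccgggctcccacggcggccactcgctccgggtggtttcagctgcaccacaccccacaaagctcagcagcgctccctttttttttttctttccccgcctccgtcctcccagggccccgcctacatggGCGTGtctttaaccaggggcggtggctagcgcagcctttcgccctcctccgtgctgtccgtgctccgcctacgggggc
Egln3 (chr12:54203875-54204124, − strand): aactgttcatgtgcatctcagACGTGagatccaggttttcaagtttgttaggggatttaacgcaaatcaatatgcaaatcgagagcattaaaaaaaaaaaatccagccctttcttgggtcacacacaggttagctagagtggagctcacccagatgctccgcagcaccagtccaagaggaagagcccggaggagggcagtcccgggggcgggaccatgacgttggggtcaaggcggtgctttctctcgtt
Adm (chr7:110627407-110627656, + strand): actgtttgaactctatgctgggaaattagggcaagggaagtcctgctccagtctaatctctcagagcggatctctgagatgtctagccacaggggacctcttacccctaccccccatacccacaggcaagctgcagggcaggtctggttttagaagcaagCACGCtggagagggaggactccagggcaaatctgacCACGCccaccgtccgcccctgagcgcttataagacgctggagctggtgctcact
The Ldha window held ACGTG 5 times, 4 of them in 2 copies of CACGTG. Car9 held it once, beginning 18 bases before the start, and Egln3 once, 229 bases before it. Pdk1 held GCGTG once and Adm 2 times. These windows were chosen for holding a motif. A second Pdk1 window in the table held none and a second Ldha window held GCGTG once, and Gpi1, Tpi1 and Eno2 had neither motif. Windows were available for 33 members and not used for Eno1b, Epas1, Ndrg1 and Slc2a3. Of those 33 members, 30 (90.9%) had either motif in at least 1 window, against 41.5% of the 27025 genes in the promoter table and 62% of the 9656 genes at 5 CPM or more in these libraries. Counted by window, the shares were 82.6% of 46 member windows, 55.7% of windows of the expressed genes and 38.6% of all 32851 windows. Both motifs hold the pair CG, and the median C+G content was 62.2% in member windows, 60.0% in those of expressed genes and 52.4% in all. A match describes letters in the window and does not show binding.

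In the control epithelium, Ldha and several hypoxia targets were higher at E14.5 than at E12.5, while Slc2a3 and Pfkfb4 were called lower. Ldha stood at 888 CPM at E12.5 and 2152 CPM at E14.5, 2.42-fold higher (2.38 to 2.47), while Ldhb, its partner subunit, went from 135 to 75.3 CPM, 1.79-fold lower (1.67 to 1.93) and not called. Car9 went from 13.5 to 152 CPM, 11.2-fold higher (9.91 to 12.7), on 287 and 2212 reads. Pdk1, the kinase that switches off pyruvate dehydrogenase, went from 69.3 to 153 CPM, 2.2-fold higher (2.06 to 2.35). In all, 9 of 34 measured members (26.5%) were called higher, against 6.53% of the 12136 measured genes, and 2 (5.88%) were called lower, against 11.2% of genes. The median log2 ratio was 0.59 over the members and −0.03 over all measured genes, whose 5th and 95th percentiles were −1.5 and 1.13.

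Among the hypoxia targets, Egln3, a prolyl hydroxylase that is itself induced when oxygen falls, stood at 1.88 and 7.81 CPM at the 2 stages of control epithelium, 4.14-fold higher at E14.5 (2.87 to 6.1). Ndrg1, a stress-responsive gene, stood at 54.2 and 119.7 CPM (2.21-fold, 2.05 to 2.38), and Ddit4, an inhibitor of mTORC1 signalling, at 27.3 and 56.9 CPM (2.08-fold, 1.87 to 2.32). Pfkfb3 and Pfkfb4 both make and break the bisphosphate that activates phosphofructokinase, and they moved apart. Pfkfb3 was 2.03-fold higher (1.76 to 2.34), while Pfkfb4 stood at 8.24 and 1.03 CPM, 8.02-fold lower (4.73 to 14.6) on 175 and 15 reads. Bnip3, which marks mitochondria for removal, reached 1.48-fold (1.36 to 1.61) and Ankrd37, a small ankyrin-repeat gene, lay 1.16-fold lower (0.908 to 1.48), so neither was called. Aldoc was 2.52-fold higher (2.18 to 2.91), from 14 to 35.2 CPM.

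Hif1a, Egln1, Slc2a1 and most glycolytic enzymes were not called in this comparison. Hif1a stood at 259.5 CPM at E12.5 and 161 CPM at E14.5, 1.62-fold lower (1.54 to 1.7) and not called. Egln1 was at 108 and 105 CPM. The broadly used glucose transporter Slc2a1 was at 109 CPM at both stages, and the high-affinity transporter Slc2a3, which was called, at 25.2 and 9.8 CPM, 2.58-fold lower (2.14 to 3.12). Of the glycolytic enzymes, Gpi1, which follows hexokinase, was 1.53-fold higher (1.48 to 1.59) and the liver phosphofructokinase Pfkl 1.58-fold higher (1.52 to 1.64). Aldoa, the aldolase of most tissues, was 1.7-fold higher (1.66 to 1.75) and Pkm 1.08-fold higher (1.06 to 1.09). Hk1, the constitutive hexokinase, was 1.7-fold lower (1.48 to 1.95). The triose isomerase Tpi1 was 1.99-fold higher (1.94 to 2.03), Pgk1 1.63-fold, Gapdh 1.54-fold and Pgam1 1.39-fold, all short of 2-fold. Adm, a vasodilator peptide, was not measured, with 0.942 and 2.53 CPM.

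These values hold for TMM scaling over all genes. The epithelial markers were themselves higher at E14.5, 4 of 8 called and a median log2 ratio of 1.08, with sums of 2653 and 4922 CPM. Endothelial markers were called lower for 4 of 6 (median −1.07, sums 171 and 99.9 CPM), leukocyte markers for 1 of 6 (sums 236 and 161 CPM), and 2 of 7 measured mesenchymal markers, Pdgfrb and Twist1, were called lower. Set relative to the median of the epithelial markers, an alternative chosen after the data were seen, the members' median became −0.49, with 2 called higher and 11 lower. This alternative moved every gene by the same log2 step of −1.08, so the members' distance from all genes did not change. The share of all genes called under it was not computed. With plain CPM, which moved the median of all genes by −0.15, 5 members were called higher and Pdk1, Ndrg1, Ddit4 and Pfkfb3 were no longer called. The part of these marker changes in the result was not tested.

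In the mutant-labelled epithelium the same stage comparison called few members. Ldha stood at 1216 CPM at E12.5 and 1283 CPM at E14.5 (1.06-fold, 1.03 to 1.08), and Car9 at 15.0 and 22.7 CPM (1.51-fold, 1.27 to 1.8). Pdk1 was 1.33-fold lower (1.21 to 1.45), from 77.6 to 58.5 CPM. P4ha2, a catalytic subunit of the hydroxylase that matures collagen, was called higher, from 29.0 to 67.9 CPM (2.34-fold, 2.09 to 2.63), and Eno1b was called lower. That is 1 of 34 measured members in each direction (2.94%), against 6.27% of 12167 genes higher and 5.89% lower. The members' median was −0.02 and that of all genes 0.00. Ndrg1 (1.76-fold, 1.6 to 1.93) and Ddit4 (1.62-fold, 1.42 to 1.84) were also higher at E14.5 here, without reaching 2-fold. The markers moved less on the epithelial side, with a median of 0.15, and the mesenchymal ones had a median of 0.69. The difference between the 2 stage comparisons was not tested.

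**Figure D2:**
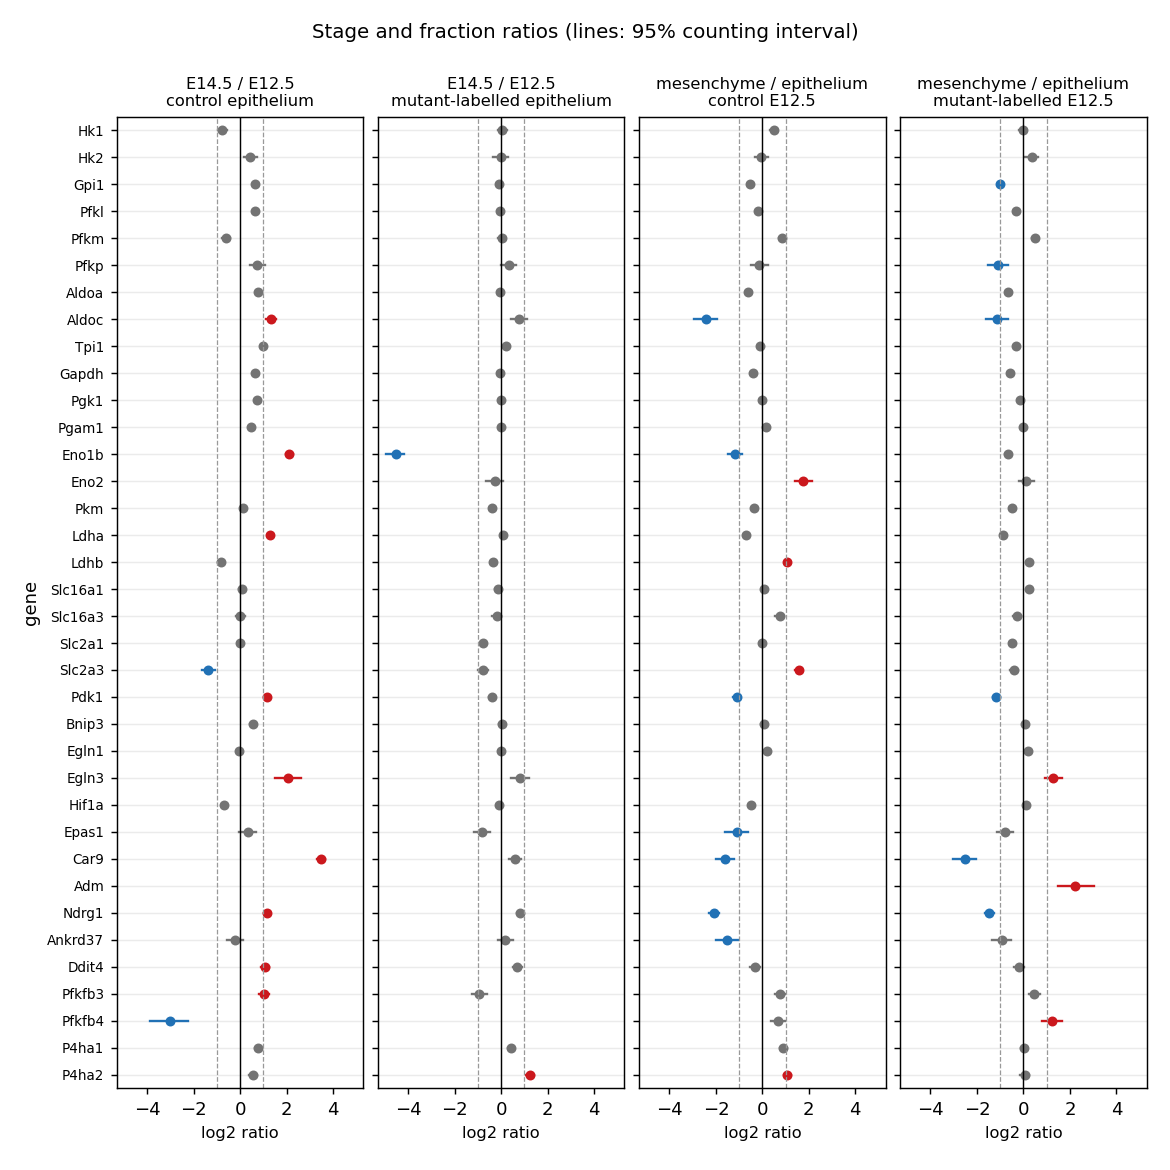
Log2 ratio of each measured member in the 2 stage comparisons (left) and the 2 fraction comparisons (right), with lines for the 95% counting interval, red and blue for members called higher and lower, and dashed lines at 2-fold. In control epithelium 9 members are called higher at E14.5, in mutant-labelled epithelium 1, and Aldoc, Pdk1, Car9 and Ndrg1 are called lower in mesenchyme in both fraction panels.

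Between the genotypes at E14.5, members went both ways. In the mutant-labelled epithelium Car9, Pdk1 and Pfkfb3, known as hypoxia targets, were called lower, and the glucose transporter Slc2a3 was called higher. Car9 stood at 152 and 22.7 CPM, 6.68-fold lower (5.93 to 7.54), Pdk1 at 153 and 58.5 CPM, 2.61-fold lower (2.41 to 2.83), and Pfkfb3 at 32.6 and 9.12 CPM, 3.57-fold lower (2.93 to 4.38). Ldha was 1.68-fold lower (1.65 to 1.71), short of a call, and Aldoc was called lower (2.44-fold, 2.07 to 2.89). Ldhb, the relative of Ldha, and the glucose transporter Slc2a3 were called higher. Ldhb went from 75.3 to 157 CPM (2.08-fold higher, 1.94 to 2.24) and Slc2a3 from 9.8 to 24.1 CPM (2.46-fold higher, 2.02 to 3.02). Pfkm, the muscle form of phosphofructokinase, was 2.06-fold higher (1.81 to 2.33) and Eno2, the neuronal enolase, 2.39-fold higher (1.68 to 3.44). Hk1 stood at 19.5 and 38.9 CPM, 2-fold higher (1.73 to 2.31) and just short of a call. Without a call, Slc16a3 (21.8 and 34.8 CPM), P4ha1 (62.1 and 87.6 CPM), P4ha2 (38.8 and 67.9 CPM) and Ankrd37 (7.4 and 10.6 CPM) also lay higher. Ndrg1 (119.7 and 84.2 CPM), Ddit4 (56.9 and 40.4 CPM) and Bnip3 (75.6 and 65.1 CPM) lay lower, again without a call. Of 34 measured members, 4 were called higher (11.8%), against 9.64% of 12145 genes, and 5 lower (14.7%), against 6.40%. The members' median log2 ratio was −0.22, with 22 of 34 below 0, and that of all genes −0.03. This comparison shares its control library with the stage comparison of control epithelium, so the 2 are not separate evidence on the same genes.

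Cell type markers moved with this comparison. The epithelial markers were called lower for 4 of 8 (median −0.96, sums 4922 and 2634 CPM), and the mesenchymal markers called higher for 5 of the 7 measured (median 1.08, sums over all 8 markers of 4292 and 8379 CPM). Of the leukocyte markers, S100a9 (36.4 and 1.01 CPM) and Ltf (40.9 and 0 CPM) were called lower and 1 of the 5 measured was called higher, with sums of 161 and 151 CPM. Endothelial markers were called higher for 2 and lower for 1 of 6 (sums 99.9 and 97.4 CPM), and erythroid markers summed to 8.97 and 30.4 CPM. Relative to the epithelial markers, the members' median became 0.74, with 12 called higher and 2 lower. That setting moved every gene by the same log2 step of 0.96, so the members' distance from all genes did not change. The share of all genes called under it was not computed. The part of the cell type markers in the result was not tested.

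At E12.5, most of the hypoxia targets called between the fractions of control buds were lower in mesenchyme than in epithelium, while members as a whole went both ways. Ndrg1 stood at 54.2 CPM in epithelium and 12.8 CPM in mesenchyme (4.23-fold lower, 3.63 to 4.96), Car9 at 13.5 and 4.49 CPM (3.01-fold lower, 2.3 to 3.99), Ankrd37 at 8.57 and 3.02 CPM (2.84-fold lower, 2.04 to 4.03) and Pdk1 at 69.3 and 32.3 CPM (2.15-fold lower, 1.94 to 2.39). Aldoc was 5.35-fold lower (3.82 to 7.67) and Epas1, the alpha subunit best known from endothelium, 2.14-fold lower (1.53 to 3.04). The endothelial markers summed to 171 CPM in this epithelium and 9.26 CPM in the mesenchyme. Their part in the Epas1 difference was not tested. Higher in mesenchyme were Eno2 (3.37-fold, 2.63 to 4.34), Slc2a3 (2.97-fold, 2.67 to 3.3), P4ha2 (2.11-fold, 1.89 to 2.35) and Ldhb (2.06-fold, 1.96 to 2.16), the last not called with plain CPM. P4ha1, the other collagen hydroxylase subunit on the list, reached 1.88-fold (1.71 to 2.06). Also higher in mesenchyme without a call were Slc16a3 (21.7 and 36.2 CPM), Pfkfb3 (16.1 and 27.2 CPM) and Pfkfb4 (8.24 and 13.2 CPM). Of the measured members, 15 had a ratio above 1 and 19 below. Of 25 other known hypoxia targets, 23 were measured, 10 with a ratio above 1 and 13 below, and a median log2 ratio of −0.09. The counts were 4 of 34 higher (11.8%), against 7.00% of 12066 genes, and 7 lower (20.6%), against 13.6%, with a median of −0.07 over members and 0.03 over genes.

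In the mutant pair, 3 of 36 measured members were called higher in mesenchyme (8.33%), against 5.42% of 11956 genes, and 6 lower (16.7%), against 12.9%. Car9 (5.71-fold, 4.08 to 8.16), Ndrg1 (2.76-fold, 2.4 to 3.19), Pdk1 (2.26-fold, 2.04 to 2.51) and Aldoc (2.2-fold, 1.61 to 3.04) were again lower, joined by Gpi1 (2.03-fold, 1.94 to 2.14), the isomerase of the pathway, and Pfkp (2.13-fold, 1.59 to 2.88), the platelet phosphofructokinase. Adm (4.69-fold, 2.84 to 8.14), Egln3 (2.43-fold, 1.89 to 3.15) and Pfkfb4 (2.33-fold, 1.74 to 3.17) were higher. Ldha was lower in mesenchyme in both pairs, 1.64-fold (1.6 to 1.69) and 1.83-fold (1.78 to 1.87), below the threshold. The members' median was −0.24 and that of all genes 0.03.

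Within the mesenchyme, the mutant library had higher levels of a few feedback and signalling members. Adm stood at 1.01 and 5.85 CPM, 5.82-fold higher (3.35 to 10.8), on 15 and 91 reads. Egln3 stood at 3.69 and 13.9 CPM, 3.77-fold higher (2.79 to 5.16), and Epas1 at 3.15 and 8.04 CPM, 2.55-fold higher (1.81 to 3.65). Slc2a3 was the member called lower, at 74.9 and 31.3 CPM (2.4-fold, 2.15 to 2.67). Called higher were 4 of 33 measured members (12.1%), Eno1b included, against 1.96% of 11188 genes, and called lower 1 (3.03%), against 3.50%. Of the uncalled members, Ldha was 1.23-fold higher (1.19 to 1.27), Hif1a 1.1-fold higher (1.04 to 1.15), Pdk1 1.06-fold higher (0.939 to 1.21) and P4ha2 1.84-fold lower (1.64 to 2.07), the last from 55.7 to 30.2 CPM. The median log2 ratio was 0.12 over the members and −0.01 over genes. Erythroid marker sums were 65.8 and 2.64 CPM and leukocyte marker sums 18.1 and 3.79 CPM in these libraries, and their part in the result was not tested.

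In the epithelium at E12.5, many members lay slightly higher in the mutant-labelled library. Of 35 measured members, 30 had a ratio above 1, and the median log2 ratio was 0.31, against 0.00 over 11991 genes with 5th and 95th percentiles of −0.84 and 0.65. Called higher were 4 (11.4%), against 1.79% of genes, and called lower 0, against 3.21%. Egln3 stood at 1.88 and 5.72 CPM (3.03-fold, 2.06 to 4.53), Epas1 at 6.74 and 14 CPM (2.08-fold, 1.67 to 2.59) and Eno2 at 4.38 and 9.4 CPM (2.14-fold, 1.64 to 2.82), with Eno1b the remaining call. The abundant enzymes shifted by less than 2-fold, Aldoa 1.4-fold (1.36 to 1.44), Ldha 1.37-fold (1.34 to 1.4), Tpi1 1.3-fold (1.26 to 1.33) and Gapdh 1.28-fold (1.26 to 1.3). Slc16a3, the lactate exporter of strongly glycolytic cells, stood at 21.7 and 40.1 CPM (1.85-fold, 1.64 to 2.1), P4ha1 at 36.8 and 65.6 CPM (1.78-fold, 1.62 to 1.96) and Slc2a1 at 109 and 158 CPM (1.44-fold, 1.36 to 1.53). Lower without a call were Pfkfb4, at 8.24 and 4.27 CPM (1.93-fold, 1.44 to 2.61), which was called when libraries were thinned, Aldoc, at 14 and 8.48 CPM (1.65-fold, 1.34 to 2.05), and Hif1a, at 259.5 and 189 CPM (1.37-fold, 1.31 to 1.44). The leukocyte markers S100a9 and Ltf were called lower (list sums 236 and 121 CPM) and the mesenchymal marker Twist1 higher, and their part in these values was not tested. Relative to the epithelial markers, a setting that moved every gene by log2 0.13, the median was 0.44.

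**Figure D3:**
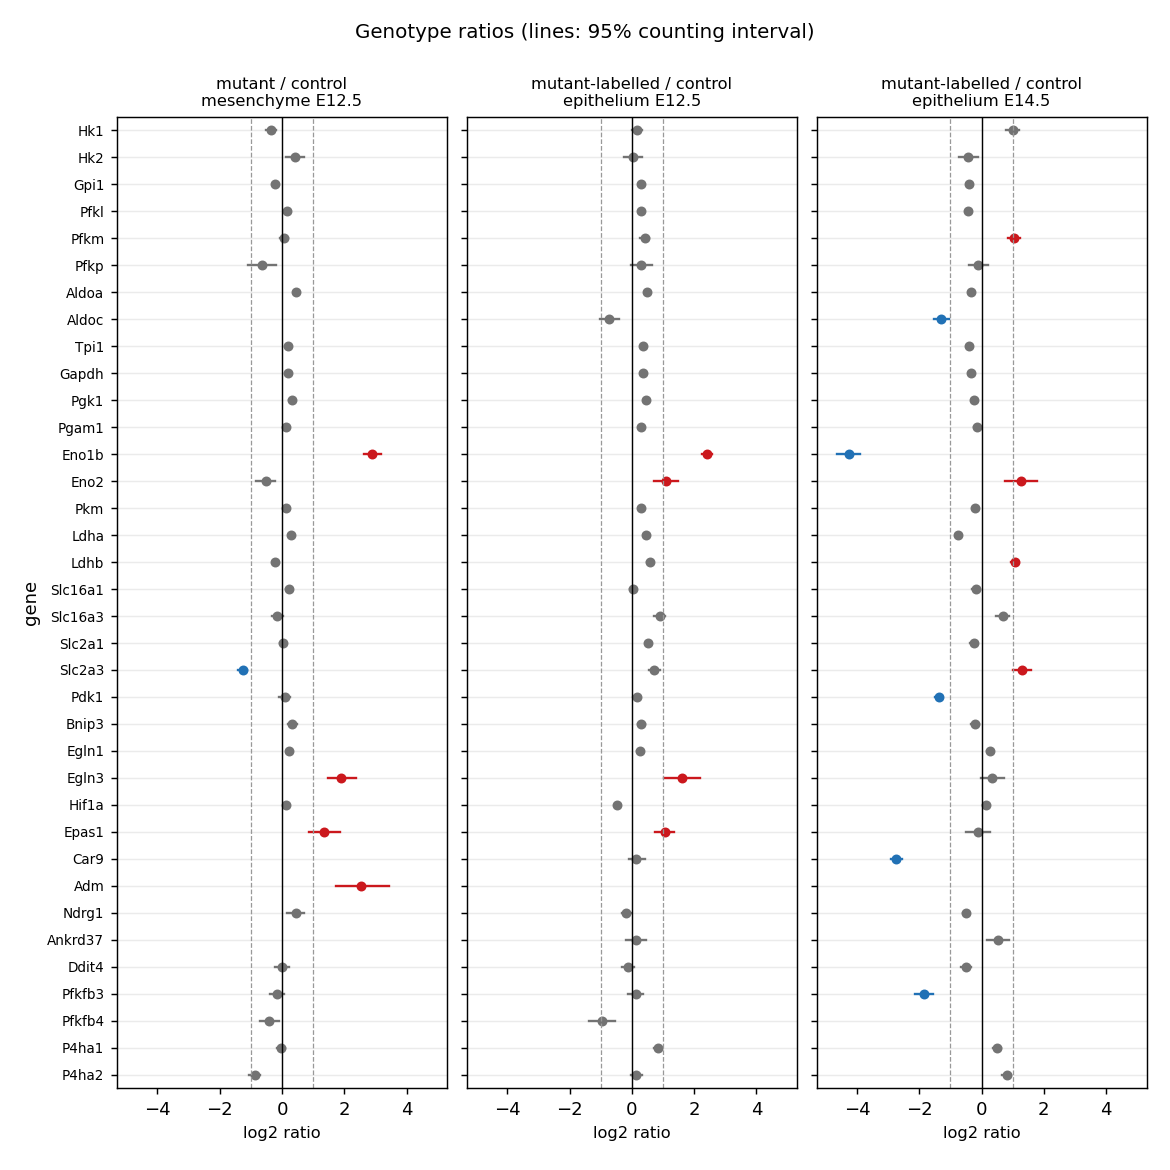
Log2 ratio of each measured member in mutant or mutant-labelled over control, for mesenchyme at E12.5 and epithelium at E12.5 and E14.5, drawn as in the stage panels with 95% counting intervals and dashed lines at 2-fold. Egln3 and Epas1 are called higher in both E12.5 panels. At E14.5, Car9, Pdk1 and Pfkfb3 are called lower and Slc2a3 is called higher.

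Egln3 and Epas1 were thus called higher in both E12.5 genotype pairs. The pairs share no library, but the epithelial libraries also held mesenchymal marker RNA (3936 and 4280 CPM, against 8525 and 7379 CPM in mesenchyme). Egln3 stood at 13.9 CPM in the mutant mesenchyme and 5.72 CPM in the mutant-labelled epithelium. The part of mesenchymal RNA in the epithelial ratios was not tested. The epithelial pair also uses the control table that differs in date and form of name. At E14.5, Egln3 stood at 1.28-fold higher (0.991 to 1.65) and Epas1 at 1.08-fold lower (0.825 to 1.41). Endothelial markers summed to 9.26 and 13.8 CPM in the mesenchyme, where Pecam1 was the measured marker of the 6 and was called higher, from 2.48 to 6.37 CPM (2.57-fold, 1.74 to 3.85). In the E12.5 epithelium they summed to 171 and 189.6 CPM, with 0 of 6 called and a median of 0.19, Emcn going from 15.7 to 31 CPM and Tie1 from 35.4 to 24.2 CPM. Their part in the Epas1 differences was not tested.

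Eno1b had the widest genotype differences, and its counts are uncertain. Enolase turns phosphoglycerate into phosphoenolpyruvate, and Eno1 is known as its broadly expressed form. Here Eno1 held 0 to 5 counts in a library and was never measured, while Eno1b held 63 to 1612 counts. Of the 50-base stretches in Eno1b transcripts, 85.2% also occur in transcripts of other genes, and of those in Eno1 transcripts 26.0%. How the counting treated such reads is not known, so the split between the 2 genes is uncertain. These shares are over all annotated transcripts of a gene and can differ for the transcript made. Eno1 was nearly without counts, and the cause was not tested. The sum of the pair may also miss reads. It ran from 4.52 to 106 CPM over the libraries, against 210.4 to 292 CPM for Pgam1 and 1274 to 1965 CPM for Pkm. Summed, the pair stood at 19.9 and 106 CPM in the E12.5 epithelium, 8.92 and 66.3 CPM in the mesenchyme, and 86.4 and 4.52 CPM in the E14.5 epithelium. The sum was 5.35-fold higher (4.8 to 5.96) and 7.43-fold higher (6.2 to 8.97) in the mutant-labelled and mutant libraries at E12.5, and 19.1-fold lower (14.8 to 25) at E14.5. Neighbouring steps did not move by such amounts: over the same 3 pairs Pgam1, the step before, was 1.24-fold higher, 1.09-fold higher and 1.12-fold lower, and Pkm, the step after, 1.21-fold higher, 1.09-fold higher and 1.17-fold lower. Pgk1 (53.9%), Bnip3 (47.2%), Pgam1 (36.2%), Pkm (25.8%), Gapdh (25.1%) and Ldhb (21.0%) also share sequence with other genes, and their levels carry the same reservation.

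Shares between 2 forms of a protein within a library do not depend on how libraries are scaled. The size of a share does depend on the exon lengths used, which cover all annotated exons, while the order of libraries does not. Lactate dehydrogenase is built from Ldha subunits, common in muscle, and Ldhb subunits, common in heart. Per exon length, Ldha made up 75.7% (75 to 76.4) and 74.1% (73.3 to 74.8) of the pair in the E12.5 epithelium. It made up 48.0% (47 to 48.9) and 57.2% (56.3 to 58.2) in the mesenchyme, and 93.1% (92.7 to 93.5) and 79.5% (78.8 to 80.2) in the E14.5 epithelium. The control mesenchyme therefore held the lowest share and the control E14.5 epithelium the highest, with intervals that do not overlap those of any other library.

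Pfkm was highest in the mesenchyme and lowest in the control E14.5 epithelium, with 23.2% and 24.7% of the sum with Pfkl, the liver form, in the E12.5 epithelium, 38.3% (36.7 to 39.9) and 36.8% in the mesenchyme, and 11.2% (10.2 to 12.3) and 25.9% (24.4 to 27.4) in the E14.5 epithelium. Slc2a3 made up 24.9% (23.4 to 26.3) of the sum with Slc2a1 in the control mesenchyme and 4.19% (3.53 to 4.93) in the control E14.5 epithelium, against 10.1% to 11.8% in the other 4 libraries. Hk2, the inducible hexokinase, made up 52.8% (48.3 to 57.2) of the sum with Hk1 in the control E14.5 epithelium and 25.2% to 36.5% elsewhere. In each of these 4 pairs the mutant-labelled E14.5 library lay nearer to the E12.5 epithelium than to its own control. A share can also shift with the mix of cells in a library. The mutant-labelled E14.5 library had more mesenchymal marker RNA than its control (8379 against 4292 CPM) and less epithelial (2634 against 4922 CPM). Ldhb, Pfkm, Slc2a3 and Hk1 were all higher in mesenchyme than in epithelium in control buds at E12.5. Between the mutant fractions this held for Ldhb and Pfkm but not for Slc2a3 and Hk1. The part of the cell mix in these shares was not tested.

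The regulators split differently. Egln3 made up 2.31% (1.65 to 3.12) and 5.68% (4.58 to 6.95) of the sum with Egln1 in the E12.5 epithelium and 3.83% (2.9 to 4.95) and 11.2% (9.88 to 12.7) in the mesenchyme, but 9.1% and 9.57% at E14.5, where the intervals overlap. Epas1 made up 2.66% and 7.25% of the sum with Hif1a in the E12.5 epithelium, 1.75% and 3.99% in the mesenchyme, and 5.24% and 4.5% at E14.5. Pfkfb4 made up 44.3% and 27.4%, then 43.0% and 38.9%, of the sum with Pfkfb3 at E12.5, and 4.66% (2.64 to 7.53) and 14.6% (8.33 to 22.9) at E14.5. Slc16a3 made up 16.9% and 16.3% of the sum with Slc16a1 in the control epithelium of the 2 stages and 26.7% and 26.2% in the mutant-labelled epithelium. In the mesenchyme its share was 24.4% in the control and 20% in the mutant.

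**Figure D4:**
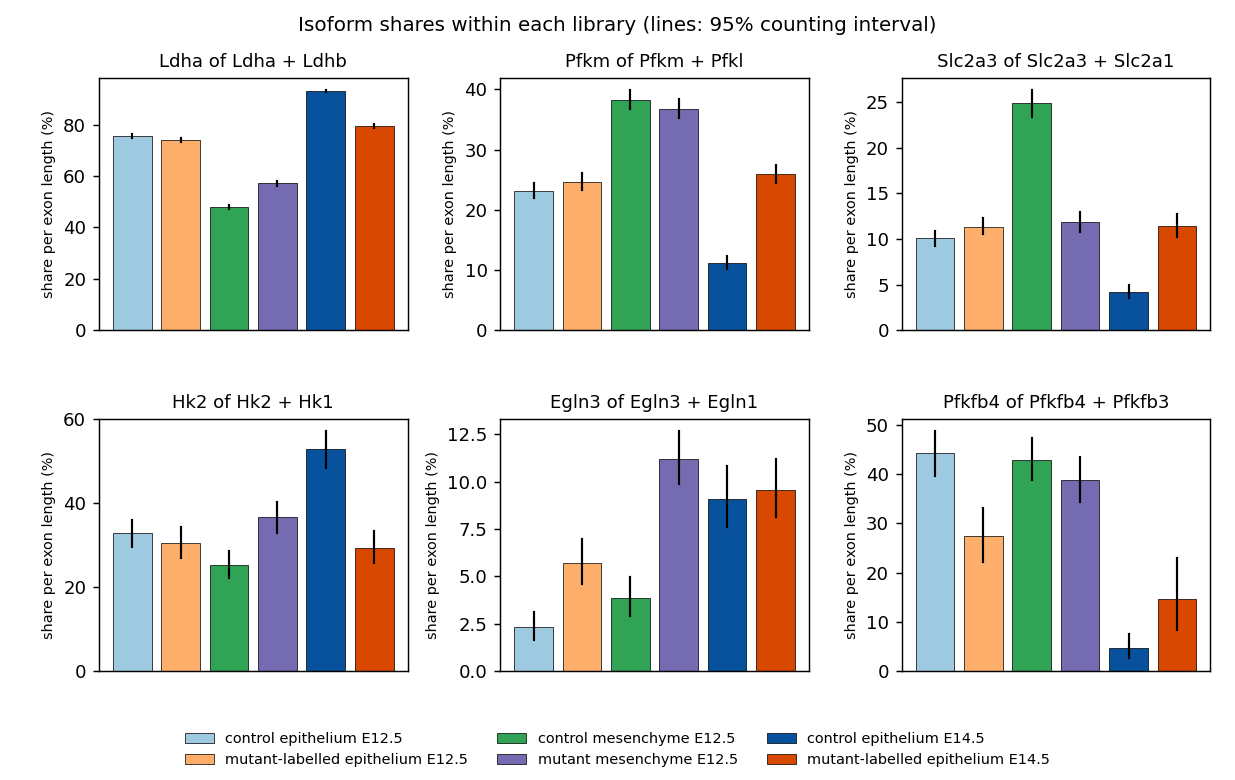
Share of 1 form in the sum of 2 related members, per exon length, for 6 pairs of genes in the 6 libraries, as bars with lines for the 95% counting interval. The Ldha share is lowest in the control mesenchyme (48.0%) and highest in the control E14.5 epithelium (93.1%), while the Pfkm and Slc2a3 shares are lowest in the control E14.5 epithelium.

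Of 9 other regulators of hypoxia-inducible factor, none was called in 5 of the 7 comparisons. Arnt2, a partner subunit, was called lower at E14.5 in both stage comparisons, from 33.3 to 9.32 CPM in the control epithelium (3.57-fold, 2.97 to 4.33). Of 26 other glycolysis and gluconeogenesis genes in the tables, 16 were measured between the control fractions, with 3 called higher (18.8%) and 3 lower (18.8%) in mesenchyme, and 16 between the mutant fractions, with 1 higher and 3 lower. The genotype comparison at E14.5 called 2 of 19 in each direction, and the stage comparison of control epithelium 3 of 18 higher and 1 lower, with a median of 0.46. The stage comparison of mutant-labelled epithelium called 1 of 17 in each direction, and the genotype comparisons at E12.5 called 0 of 13 in mesenchyme and 0 of 16 in epithelium. Of 25 other known hypoxia targets, 23 or 24 were measured in a comparison and at most 4 were called. In the control stage comparison their median was 0.24, with Stc2, a secreted glycoprotein, at 2.07 and 16.6 CPM (8-fold higher, 5.78 to 11.3), Ak4, a mitochondrial adenylate kinase, 2.34-fold higher, and Car12, a relative of Car9, 3.45-fold lower. In the same comparison the 12 citric acid cycle genes had a median of 0.41, the 6 measured pentose phosphate genes 0.42 and the 10 proliferation genes 0.47, with no call in any of these lists in any comparison.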

How the data were processed

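RNA of sorted pancreatic bud cells was measured in 6 libraries, 1 per group. Per the files, the authors deposited whole-number counts per gene, not normalised, with 5 summary lines that were left out of library totals. Table names call the counts deduplicated. The submitters' processing notes name the mm10 build, Cufflinks 2.2.1 and Cuffdiff 2.2.1. No source used here gives the aligner, counting program, annotation or use of strand. Reads on no gene made up 4.69% to 8.84% of reads, reads not unique 13.7% to 20.1% and ambiguous reads 1.53% to 1.72%. The mutant genotype has a further allele, not reported here, so Pbx2+/- is not all of it.

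Counts were scaled with TMM factors (0.941 to 1.05) of edgeR 4.0.16 in R 4.3.3. Ratios of 2 libraries with exact 95% Clopper-Pearson intervals were computed for all 24062 genes in Python 3.11.15 with scipy 1.17.1, numpy 2.4.6 and pandas 2.3.3, and drawn with matplotlib 3.10.9. The calculation was tested on simulated data. Reads carry no molecular identifiers, and counting error is all that intervals and floors cover. A library with no read took a floor of 3 counts. Exon lengths, over all annotated exons of a gene, and shared 50-base stretches came from GENCODE M21 and promoter windows from RefSeq. All members are named, and of other lists up to 4 genes called at least once, in the order of the largest ratio. The members, lists, thresholds and rule for named genes were chosen with earlier results of these data known. Alternatives were DESeq2 1.42.0 size factors, plain CPM, thinning to the smallest total, no filter or a filter of 20 CPM, a 1.5-fold threshold, and Eno1 and Eno1b summed. Ratios relative to the epithelial markers, and leaving out members that share sequence, were added after the data were seen.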

Additional observations from a re-analysis of the deposited data

Results flagged for a closer look

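Eno1b, whose counts are uncertain, had opposite genotype directions in different pairs. Its log2 ratio of mutant over control was 2.90 in the mesenchyme and −4.25 in the E14.5 epithelium, a difference of 7.15. Against 2.42 in the E12.5 epithelium, the difference was 6.67. The stage ratios, 2.12 in the control and −4.55 in the mutant-labelled epithelium, also differed by 6.67. Slc2a3 had a genotype log2 ratio of −1.26 in the mesenchyme and 1.3 in the E14.5 epithelium, a difference of −2.56. These opposite directions were noted because each ratio was called. With 1 library per group, the differences were not tested.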

How the results depend on the processing

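No paired analysis was possible because each group has 1 library, and leaving out a library leaves no comparison. Of 173 medians and counts under alternatives, 144 stayed close (a count within 1.5 times, a median within the median bounds of its members' intervals), 27 moved and 2 reversed. Of 165 values of single members under other scaling or thinning, 160 stayed inside their counting interval, 5 moved and 0 reversed, with 5 calls lost and 6 gained. Relative to the epithelial markers, the median was 0.44 for genotype in E12.5 epithelium, reversed to 0.74 at E14.5 (12 called higher, 2 lower), reversed to −0.49 for stage in control epithelium (2 higher, 11 lower), and was −0.17 in mutant-labelled epithelium (2 lower). In that order, this setting moved every gene by log2 0.13, 0.96, −1.08 and −0.15. A reversed median thus changed its sign but not its distance from all genes. A filter of 20 CPM left 2 lower for control fractions, 0 higher and 3 lower for mutant fractions, 1 higher for genotype in mesenchyme and in E12.5 epithelium, and 1 lower for stage in control. At 1.5-fold, the counts were 9 higher for control fractions, 11 lower for mutant fractions, 3 lower for genotype in mesenchyme, 7 higher and 2 lower in E12.5 epithelium and 7 higher at E14.5, and, for stage, 17 higher and 6 lower in control and 6 higher and 5 lower in mutant-labelled epithelium. Thinning gave 1 lower for genotype in E12.5 epithelium, plain CPM 5 higher for stage in control, and no filter 2 lower and leaving out members that share sequence 0 lower for stage in mutant-labelled epithelium. The share of all genes called was computed only for the main setting of 2-fold, 5 CPM and TMM scaling. Counts of members under other settings therefore show only how calls depend on the setting. The cause of the moves was not tested. Depth limits the low members: Adm rested on 15 to 91 reads and Pfkfb4 at E14.5 on 14 and 15.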

Other observations

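Hkdc1, a hexokinase relative, stood at 47.5 and 34.7 CPM in the E12.5 epithelium and 42.8 and 20 CPM in the E14.5 epithelium, with no read in either mesenchyme library, where it was at least 236-fold and 179.8-fold lower with a floor of 3 counts per library. Slc2a2, the glucose transporter of liver and beta cells, stood at 60.9 and 66.0 CPM in the E12.5 epithelium and 12.1 and 18.5 CPM at E14.5, lower by 5.05-fold and 3.56-fold, while mesenchyme held 2 and 0 reads. Pdk4, a relative of Pdk1, had no read in the control E12.5 epithelium and 5.89 CPM at E14.5, at least 41.7-fold higher. Fbp2, which runs against phosphofructokinase, had no read at E12.5 in any library and 2.33 and 5.82 CPM in the E14.5 epithelium.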
